A study of Homo sapiens with 16 samples.

Results

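Interferon-stimulated genes are the genes that cells switch on when type I, II or III interferon binds its receptor. Here 37 such genes were followed by name in human bronchial epithelial cells, out of 42665 gene names on the array. They are a named set, matched by gene symbol and chosen with earlier results of these data known. Their shares of calls beside those of all genes are therefore a description and not a test. They are represented by 51 probes, and each gene is described by its brightest probe. For 36 of the 37 genes that probe stood well above background on 4 arrays or more and was tested. The exception was IFI44L, which was not well above background on any of the 16 arrays.

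The cells were 16HBE, a bronchial epithelial line immortalised with the large T antigen of SV40. 16HBE-WT (WT below) is the parental line, and 16HBE-ex14 (ex14) is a single subclone, clone F, in which the splice donor region of MET exon 14 was cut with Cas9 so that the exon is skipped. MET is the receptor of hepatocyte growth factor (HGF), and exon 14 holds a site through which the activated receptor is degraded. Each line was measured without HGF and after HGF at 20 ng/mL for 24 h (WT+HGF and ex14+HGF), with 2 h of serum starvation beforehand in every group as the protocol describes it and 4 arrays per group. The ex14 line went through puromycin selection and limiting dilution, which the parental line is not said to have done, so the edited allele and the history of the clone cannot be told apart.

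The arrays lay on 2 slides, with 1 array of every group in each of the 2 rows of a slide, and the replicates are numbered here by slide and row. The experiment was repeated in 4 weekly cultures, but which array holds which week is not stated in the sources used here, so the p-values measure the spread between these 16 samples. Values are log2 intensities relative to the 75th percentile of the same array, which lay between 139.5 and 212.971 for the WT line and between 201.776 and 262.842 for the ex14 line. Between 49.0% and 60.3% of the probes of an array were well above background. In bulk RNA, fewer cells that express a gene and less RNA per cell cannot be told apart. All 6 epithelial markers looked at (CDH1, EPCAM, KRT8, KRT18, KRT19 and KRT5) were well above background on all 16 arrays. KRT5, a keratin of basal cells, had group means of 2.62 (WT), 2.00 (WT+HGF), 0.05 (ex14) and -2.26 (ex14+HGF). Of 14 markers of fibroblasts, leukocytes, plasmacytoid dendritic cells and endothelium, 5 were above background on no array and 6 on all arrays, with COL1A2, COL3A1, DCN, CLEC4C and PECAM1 in the first set. The summed level of the 5 fibroblast markers ranged from -1.24 to -0.20 in WT, -0.97 to -0.51 in WT+HGF, -1.67 to -1.03 in ex14 and -1.35 to -1.26 in ex14+HGF. For the 4 leukocyte markers the ranges were -0.34 to 0.37, -0.29 to 0.04, -0.62 to 0.08 and -0.47 to 0.15, for the 3 of plasmacytoid dendritic cells -3.34 to -2.61, -3.07 to -2.89, -3.30 to -2.95 and -3.21 to -2.71, and for the 2 of endothelium -1.97 to -1.50, -2.79 to -1.79, -2.14 to -1.77 and -2.79 to -1.90. The part of these markers in the results was not tested. The probe for MET read 4.97 ± 0.17, 5.00 ± 0.12, 5.10 ± 0.15 and 5.16 ± 0.10 in WT, WT+HGF, ex14 and ex14+HGF (mean ± SD, n = 4), and whether it covers exon 14 was not examined, so it does not check the edit.

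Type I and type III interferons signal through JAK1 and TYK2 to the complex ISGF3, of which STAT2 and IRF9 are parts. This complex binds the interferon-stimulated response element, a repeat of GAAA spaced by a pair of bases, in the promoters of its target genes. Epithelial cells keep a low tonic level of this programme and raise it against viral RNA and DNA. The products block viral entry, translation, replication or budding, and some of them (IRF1, IRF7, STAT2, IRF9) feed back on the pathway.

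The promoters of the genes are shown first because interferon acts on many of these genes through an element there. Promoter windows of 300 bases, from 250 before to 50 after the gene start, were found in RefSeq (GRCh38.p14) for 30 of the 37 genes. A first motif searched was GAAA, any pair of bases, then GAAA again, on both strands, so that TTTC, any pair of bases and TTTC counts too, and overlapping matches were counted separately. It was present in at least 1 window of 20 of the 30 genes (66.7%), against 4.38% of 27305 gene symbols with a window. Of the 9 genes with a window that were called lower between the lines, with or without HGF, 7 held a match, as did both genes with a window that were called higher, and 11 of the 19 others. A second motif, TTCNNNGAA, which reads the same on both strands, was present in 9 of the 30 genes (30%) and in 9.38% of all symbols. It was held by 3 of the 9 genes called lower, by neither of those called higher and by 6 of the 19 others. A match is a description of the letters in this window and not a site shown to be bound. The genes without a window were TRIM22, USP18, IRF7, MX2, OASL, OAS2 and IFIT2.

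The 250 bases before the start of BST2, the member with the largest difference between the lines, are printed in full in the direction of transcription, with the letters that match the first motif in capitals, where 2 overlapping matches form a run of 3 repeats.
BST2 (chr19:17405631-17405880, minus strand): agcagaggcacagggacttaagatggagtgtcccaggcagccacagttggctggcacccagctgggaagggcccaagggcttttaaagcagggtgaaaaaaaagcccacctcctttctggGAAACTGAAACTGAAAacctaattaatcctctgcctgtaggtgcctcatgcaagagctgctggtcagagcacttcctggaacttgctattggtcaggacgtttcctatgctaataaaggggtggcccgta

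Stretches around the matches of genes that were lower in ex14 (RSAD2, IFI44, IFI27 and IFI6) show 1, 1, 2 and 3 matches of the same letters, in capitals, in the direction of transcription.
RSAD2 (chr2:6877617-6877656, plus strand): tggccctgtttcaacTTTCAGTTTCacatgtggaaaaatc
IFI44 (chr1:78649756-78649788, plus strand): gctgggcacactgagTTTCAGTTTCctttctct
IFI27 (chr14:94110613-94110665, plus strand): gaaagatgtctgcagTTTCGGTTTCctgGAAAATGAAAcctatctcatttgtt
IFI6 (chr1:27672261-27672363, minus strand): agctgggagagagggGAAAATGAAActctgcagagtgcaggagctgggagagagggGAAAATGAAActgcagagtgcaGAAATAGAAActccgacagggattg

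For comparison, the same letters are in capitals for IFIT5, called higher in ex14 without HGF, where the last match runs across the gene start, for ISG20, called higher in ex14 with HGF, and for IFIT1 and IFIT3, called in no comparison.
IFIT5 (chr10:89414508-89414573, plus strand): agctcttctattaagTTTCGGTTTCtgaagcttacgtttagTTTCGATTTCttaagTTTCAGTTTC
ISG20 (chr15:88638932-88638971, plus strand): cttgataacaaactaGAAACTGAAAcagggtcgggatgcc
IFIT1 (chr10:89392492-89392544, plus strand): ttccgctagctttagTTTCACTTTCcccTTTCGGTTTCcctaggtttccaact
IFIT3 (chr10:89327826-89327899, plus strand): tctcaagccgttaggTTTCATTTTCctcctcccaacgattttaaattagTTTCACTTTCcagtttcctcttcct

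Without HGF, ex14 and WT differed in 9 of the 36 interferon-stimulated genes tested (limma, adjusted p below 0.05 and a fold change above 1.5), against 9.25% of all 26356 gene names tested. Lower in ex14 were 7 of them (BST2, MX2, IFI44, RSAD2, IFI27, CMPK2 and IFI6), where the background of lower calls was 4.74%, and 2 were higher (IFIT5 and IFIT2), where it was 4.51%. The median difference over the 36 genes was -0.19 on the log2 scale, against -0.01 over all genes. It was -0.05 with median scaling and -0.08 with spike-in scaling of the arrays, which put the median of all probes at 0.12 and 0.09. Of the 36, 24 were below 0 (20 when arrays were scaled to their median), against 51.6% of all genes in the main fit. Without the fold limit 15 passed, against 18.2%. With HGF in both lines, 11 of 36 were called against 10.7% of all genes. Of these, 10 were lower in ex14+HGF, against 5.36% of all genes, and 1, ISG20, was higher, against 5.3%. The median difference of the 36 was -0.30, against 0.00 over all genes, and 27 were below 0, against 49.8%. When arrays were scaled to their median, 24 were below 0 and the median of all probes was 0.09. Without the fold limit 18 passed, against 20.6%. The same 7 genes were lower in both comparisons, which use different arrays, or 19.4% of the 36, while 6.23% of all genes were called in both in 1 direction. The 4 arrays of the 2 groups did not overlap for 17 of the 36 genes without HGF, against 21.2% of all genes, and for 20 with HGF, against 24.1%.

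Among the antiviral effectors, BST2 had the largest difference between the lines. BST2 encodes tetherin, a membrane protein that holds budding virus particles at the cell surface. Its probe (hg19 chr19:17513748-17513807, minus strand) read 4.96, 5.00, 4.90 and 4.84 on the WT arrays, 4.72, 4.90, 4.93 and 4.97 on the WT+HGF arrays, 1.97, 2.37, 1.83 and 2.18 on the ex14 arrays, and 1.91, 1.48, 1.59 and 1.53 on the ex14+HGF arrays. All 8 arrays of the ex14 line were below all 8 of the WT line. The difference was -2.84 without HGF (SE 0.12, 7.14-fold lower, limma adjusted p = 4.09e-09) and -3.25 with HGF (SE 0.12, 9.52-fold lower, adjusted p = 9.47e-10). A second BST2 probe gave -2.90 and -3.22. Within slide 1 and slide 2 the differences without HGF were -2.81 and -2.86. The genes measured on either side, GTPBP3 and the transcript ENST00000526892, were not called, at -0.03 and -0.31 without HGF. Of 18 such neighbours of the members called without HGF, 4 were called without HGF and 5 with it, against 9.25% and 10.7% of all genes. The 18 include 4 members of the set. RSAD2 and CMPK2 are neighbours of each other, so their calls without HGF were given by the choice of genes and the shares cannot be compared. The other called neighbours included lnc-IFIT2-1 beside IFIT2 (1.62 and 0.96) and ADGRL4 beside IFI44 (1.28 and 1.66), both higher in ex14. FAM3B beside MX2 was lower with HGF (-0.63).

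RSAD2 and CMPK2 lie next to each other on chromosome 2. RSAD2 encodes viperin, which makes a chain-terminating nucleotide that stops viral polymerases, and CMPK2 encodes a mitochondrial nucleotide kinase that supplies its substrate. RSAD2 read 4.30, 4.57, 4.80 and 4.34 on the WT arrays, 4.06, 4.22, 4.61 and 4.74 on the WT+HGF arrays, 3.04, 2.97, 3.06 and 3.42 on the ex14 arrays, and 2.65, 2.67, 2.98 and 3.14 on the ex14+HGF arrays. CMPK2 read 1.12, 1.02, 1.40 and 0.97 on the WT arrays, 0.63, 0.69, 0.75 and 1.16 on the WT+HGF arrays, 0.21, 0.20, 0.27 and 0.55 on the ex14 arrays, and -0.27, -0.02, -0.21 and -0.28 on the ex14+HGF arrays. For both genes every ex14 array was below every WT array, and every ex14+HGF array below every WT+HGF array. RSAD2 was 2.60-fold lower without HGF (-1.38, SE 0.17, adjusted p = 9.16e-05) and 2.92-fold lower with it (-1.55, adjusted p = 2.99e-05). CMPK2 was 1.77-fold lower (-0.82, SE 0.13, adjusted p = 0.000648) and 2.00-fold lower (-1.003, adjusted p = 0.000113). For HGF, CMPK2 was not called in either line in the main fit. The difference was -0.50 in ex14, where the arrays with and without HGF did not overlap but the adjusted p was 0.0605 (called with median scaling). In WT it was -0.32 (adjusted p = 0.971).

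SAMD9 and SAMD9L, neighbouring genes on chromosome 7 whose products restrict poxviruses and slow growth, were both called with HGF. SAMD9 read -0.22, 0.07, -0.09 and 0.06 on the WT arrays, -0.09, -0.16, 0.32 and -0.08 on the WT+HGF arrays, -0.42, -0.75, -0.57 and -0.51 on the ex14 arrays, and -1.09, -0.83, -0.91 and -0.66 on the ex14+HGF arrays. SAMD9L read 1.74, 1.49, 1.81 and 1.55 on the WT arrays, 1.16, 1.35, 1.29 and 1.71 on the WT+HGF arrays, 1.24, 1.26, 0.84 and 1.44 on the ex14 arrays, and 0.67, 0.34, 0.41 and 0.57 on the ex14+HGF arrays. The ex14 arrays of both genes were below the WT arrays with and without HGF. Without HGF the differences of -0.52 (adjusted p = 0.0106) and -0.45 (adjusted p = 0.0436) did not reach the fold limit. With HGF both were called, SAMD9 at -0.87 (SE 0.13, adjusted p = 0.000237) and SAMD9L at -0.88 (SE 0.14, adjusted p = 0.000609). The difference between the HGF responses of the lines was -0.36 for SAMD9 (-0.74 to 0.03) and -0.43 for SAMD9L (-0.87 to 0.01), with an adjusted p of 1 for both.

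ISG20, an exonuclease that digests viral RNA, went the other way. It read 4.35, 4.60, 4.50 and 4.59 on the WT arrays, 4.55, 4.58, 4.64 and 4.62 on the WT+HGF arrays, 4.86, 4.69, 5.20 and 5.04 on the ex14 arrays, and 4.96, 5.24, 5.39 and 5.41 on the ex14+HGF arrays. The ex14 arrays were above the WT arrays in both conditions. The difference of 0.44 without HGF (adjusted p = 0.0217) stayed below the fold limit, and with HGF it was 0.65 (SE 0.12, 1.57-fold, adjusted p = 0.00155), a call that quantile normalization ended. TRIM22, a ubiquitin ligase of the tripartite motif family, was near the detection limit, with 3, 3, 1 and 2 of 4 arrays well above background in WT, WT+HGF, ex14 and ex14+HGF, and its interval in the comparison without HGF ran from -1.59 to 1.03. TRIM22 read -5.40, -3.72, -3.94 and -3.74 on the WT arrays, -3.10, -4.25, -3.59 and -3.60 on the WT+HGF arrays, -4.77, -4.22, -4.58 and -4.36 on the ex14 arrays, and -2.78, -4.05, -4.54 and -6.65 on the ex14+HGF arrays, and its lines overlapped in both conditions. PARP9, which acts with a ubiquitin ligase partner in interferon signalling, depended on the probe. Its brightest probe gave 0.26 and 0.22 without and with HGF and was not called, while the other (hg19 chr3:122247297-122247356) gave -0.62 and -0.62 and was called lower in both.

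**Figure D1:**
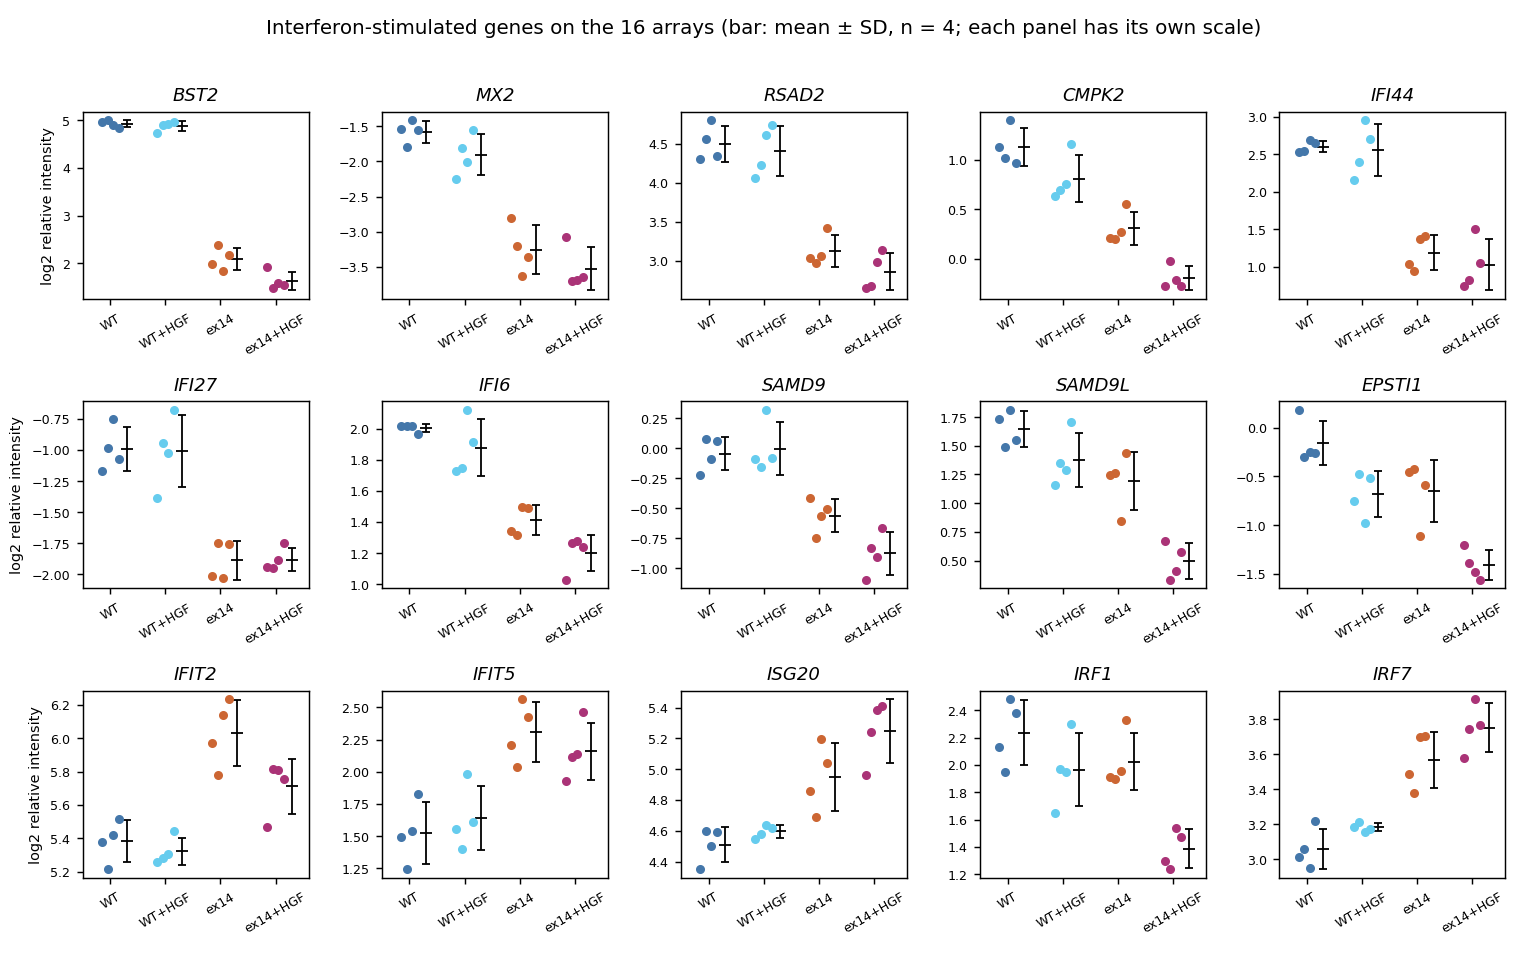
Log2 intensity relative to the 75th percentile of the array for 15 interferon-stimulated genes, 1 point per array, with the group mean ± SD (n = 4) beside the points and a scale of its own in each panel. The ex14 and ex14+HGF arrays of BST2 lie between 1.48 and 2.37, and the arrays of the WT line between 4.72 and 5.00.

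Of the MX GTPases, which trap viral ribonucleoproteins, MX2 was called lower in ex14 and MX1 was not called. MX2, known for blocking nuclear import of retroviral and herpesviral genomes, read -1.54, -1.79, -1.42 and -1.56 on the WT arrays, -2.25, -1.81, -2.004 and -1.56 on the WT+HGF arrays, -2.81, -3.21, -3.63 and -3.36 on the ex14 arrays, and -3.07, -3.70, -3.69 and -3.64 on the ex14+HGF arrays. No array of the ex14 line reached the lowest WT array. MX2 was 3.19-fold lower without HGF (-1.67, SE 0.19, adjusted p = 4.28e-05) and 3.08-fold lower with it (-1.62, adjusted p = 4.61e-05). With normexp background correction, which models signal and local background together, these became -0.80 and -0.72, both still called. This probe lies at hg19 chr21:42780501-42780560. Another MX2 probe at chr21:42735919-42735978 gave 0.37 and 0.27 and was not called, so the MX2 result depended on the probe. The group means of that probe were -3.09 (WT), -2.67 (WT+HGF), -2.72 (ex14) and -2.40 (ex14+HGF). Those of the first probe were -1.58, -1.90, -3.25 and -3.53, so the first was the brighter of them in the WT line only. MX1, which acts against influenza virus and lies beside MX2, was not called, at -0.18 (-0.55 to 0.19, 95% confidence interval) without HGF and -0.28 with it.

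The IFIT proteins bind viral RNA that lacks the host's cap marks, and their 4 genes lie in a cluster on chromosome 10. IFIT2 and IFIT5 were higher in ex14 without HGF, while IFIT1 and IFIT3 were not called. IFIT2 read 5.38, 5.22, 5.42 and 5.52 on the WT arrays, 5.26, 5.28, 5.31 and 5.44 on the WT+HGF arrays, 5.97, 5.78, 6.14 and 6.23 on the ex14 arrays, and 5.47, 5.82, 5.81 and 5.76 on the ex14+HGF arrays. IFIT5 read 1.49, 1.24, 1.54 and 1.82 on the WT arrays, 1.56, 1.40, 1.99 and 1.61 on the WT+HGF arrays, 2.21, 2.04, 2.56 and 2.43 on the ex14 arrays, and 1.93, 2.11, 2.13 and 2.46 on the ex14+HGF arrays. All ex14 arrays were above all WT arrays for both genes. IFIT2 was 1.57-fold higher (0.65, SE 0.11, adjusted p = 0.00118), and a second IFIT2 probe gave 0.62 and was called too, while another gave 0.77 with overlapping arrays and was not called. IFIT5 was 1.72-fold higher (0.78, SE 0.16, adjusted p = 0.00386). With HGF in both lines the differences were 0.39 (adjusted p = 0.0249) and 0.52 (adjusted p = 0.0362), under the fold limit, though IFIT5 was called with median scaling, without WT+HGF replicate 3 and without ex14+HGF replicate 1. IFIT1 had intervals of -0.30 to 0.66 and -0.46 to 0.50 without and with HGF, and IFIT3 of -0.36 to 0.28 and -0.36 to 0.28. IFIT2 lost its call with quantile normalization and without ex14 replicate 4.

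IFI44, IFI27 and IFI6, 3 classical markers of an interferon response, were lower in ex14. IFI44, a cytoplasmic protein that restricts virus replication, read 2.53, 2.54, 2.69 and 2.65 on the WT arrays, 2.16, 2.40, 2.95 and 2.70 on the WT+HGF arrays, 1.03, 0.95, 1.38 and 1.41 on the ex14 arrays, and 0.74, 0.83, 1.51 and 1.05 on the ex14+HGF arrays. IFI27, a small mitochondrial membrane protein, read -1.17, -0.99, -0.75 and -1.07 on the WT arrays, -1.38, -0.94, -1.03 and -0.68 on the WT+HGF arrays, -2.01, -1.75, -2.03 and -1.76 on the ex14 arrays, and -1.94, -1.95, -1.88 and -1.75 on the ex14+HGF arrays. IFI6, a membrane protein that resists apoptosis and flavivirus replication, read 2.02, 2.02, 2.02 and 1.97 on the WT arrays, 1.73, 1.75, 2.12 and 1.92 on the WT+HGF arrays, 1.34, 1.32, 1.4996 and 1.49 on the ex14 arrays, and 1.03, 1.26, 1.28 and 1.24 on the ex14+HGF arrays. The arrays of the lines did not overlap for any of the 3 genes in either condition. IFI44 was 2.66-fold lower without HGF (-1.41, SE 0.19, adjusted p = 0.000131) and 2.87-fold lower with it (-1.52, adjusted p = 5.98e-05). IFI27 was at -0.89 (adjusted p = 0.000485) and -0.87 (adjusted p = 0.000474), which normexp correction brought to -0.59, still called, and -0.58, no longer called. IFI6 was at -0.59 (adjusted p = 0.000766) and -0.68 (adjusted p = 0.000232), the latter lost with normexp correction or median scaling. The IFI6 difference without HGF lay at the fold limit, and its call was lost with normexp correction, with median or spike-in scaling, and without ex14 replicate 1 or 2.

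EPSTI1, a gene of epithelial and stromal interaction that interferon induces, read 0.18, -0.30, -0.25 and -0.26 on the WT arrays, -0.76, -0.47, -0.98 and -0.52 on the WT+HGF arrays, -0.46, -0.43, -1.11 and -0.59 on the ex14 arrays, and -1.20, -1.39, -1.48 and -1.56 on the ex14+HGF arrays. It was lower in ex14+HGF than in WT+HGF (-0.72, SE 0.17, adjusted p = 0.00642, not called with normexp correction), while the difference of -0.49 without HGF had an adjusted p of 0.0558. IFI35, which binds other interferon-induced proteins, read 2.95, 2.79, 2.99 and 3.17 on the WT arrays, 2.71, 2.86, 2.72 and 2.60 on the WT+HGF arrays, 2.68, 2.91, 2.72 and 3.13 on the ex14 arrays, and 2.38, 2.49, 2.34 and 2.47 on the ex14+HGF arrays. Its differences between the lines were -0.12 and -0.30 without and with HGF, and neither was called. XAF1, a pro-apoptotic protein, was well above background on 3, 1, 3 and 3 of the 4 arrays of WT, WT+HGF, ex14 and ex14+HGF and was called in no comparison. It read -3.70, -4.53, -3.89 and -4.06 on the WT arrays, -4.79, -3.64, -3.92 and -4.43 on the WT+HGF arrays, -3.19, -3.88, -4.99 and -3.77 on the ex14 arrays, and -5.24, -4.39, -4.38 and -3.96 on the ex14+HGF arrays. The 4 groups of XAF1 overlapped. LGALS3BP, a secreted glycoprotein that binds galectins, was not called either, with intervals of -0.14 to 0.31 and -0.17 to 0.27.

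In the ISG15 system, in which the ubiquitin-like protein ISG15 is joined to other proteins by HERC5 and taken off by USP18, no gene was called in any comparison. ISG15 was well above background on all 16 arrays and read 6.76, 6.93, 6.80 and 6.95 on the WT arrays, 6.79, 6.83, 7.02 and 6.95 on the WT+HGF arrays, 6.48, 6.21, 6.70 and 6.56 on the ex14 arrays, and 6.17, 6.54, 6.52 and 6.50 on the ex14+HGF arrays. The ex14 arrays were below the WT arrays in both conditions, with differences of -0.37 (adjusted p = 0.0379) and -0.47 (adjusted p = 0.0102), which is under the fold limit. HERC5 read 2.16, 2.10, 2.12 and 2.05 on the WT arrays, 1.82, 2.05, 2.09 and 2.12 on the WT+HGF arrays, 1.98, 1.81, 1.86 and 2.004 on the ex14 arrays, and 1.45, 1.53, 1.54 and 1.64 on the ex14+HGF arrays. With HGF, HERC5 differed by -0.48 (adjusted p = 0.00114), again under the fold limit, and without HGF the difference was -0.19 (adjusted p = 0.144). USP18 had intervals of -0.15 to 0.26 and -0.21 to 0.20, and HERC6, a relative of HERC5, of -0.71 to 0.22 and -0.58 to 0.35.

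The OAS enzymes make oligoadenylates that activate RNase L, and none of the 4 genes was called in any comparison. OAS1 read -0.67, -0.53, -0.33 and -0.38 on the WT arrays, -0.93, -0.62, -0.81 and -0.87 on the WT+HGF arrays, -0.61, -0.35, -0.43 and -0.30 on the ex14 arrays, and -0.94, -0.90, -0.74 and -0.63 on the ex14+HGF arrays. Its lines overlapped in both conditions, while in ex14 its arrays with HGF lay below those without. OAS1 had intervals of -0.18 to 0.29 and -0.23 to 0.24 for the differences without and with HGF, OAS3 of -0.40 to 0.15 and -0.31 to 0.24, and OASL of 0.01 to 0.52 and -0.05 to 0.46. OAS2 read -1.09, -0.86, -0.80 and -0.82 on the WT arrays, -0.81, -0.92, -0.95 and -0.84 on the WT+HGF arrays, -0.69, -0.85, -0.58 and -0.68 on the ex14 arrays, and -0.96, -0.97, -1.18 and -0.83 on the ex14+HGF arrays, with differences of 0.20 and -0.10 and lines that overlapped in both conditions. Another OAS2 probe gave -0.37 and 0.49, the opposite signs, and was not called. All 4 intervals of OAS1 and OAS3 lay within the fold limit of 1.5 in both directions, which is a bound on the size of the difference and does not show that the lines were alike. The RNA helicases IFIH1 (MDA5), DDX58 (RIG-I) and DDX60, which sense viral RNA or assist in it, were below 0 in both comparisons and none was called. IFIH1 read 3.01, 2.94, 3.14 and 2.997 on the WT arrays, 2.75, 2.78, 2.98 and 3.16 on the WT+HGF arrays, 2.73, 2.38, 2.69 and 2.81 on the ex14 arrays, and 2.18, 2.41, 2.26 and 2.52 on the ex14+HGF arrays. Its differences were -0.37 (adjusted p = 0.0436) and -0.57 (adjusted p = 0.00325), and the lines did not overlap in either condition. With HGF it lay just under the fold limit and was called with quantile normalization and in 4 of the 16 cases with 1 array left out. DDX58 was at -0.27 and -0.32, and DDX60 at -0.01 and -0.19. DDX60 read -0.23, -0.75, -0.13 and -0.32 on the WT arrays, -1.10, -0.81, -0.61 and -0.18 on the WT+HGF arrays, -0.42, -0.61, -0.40 and -0.05 on the ex14 arrays, and -0.91, -1.01, -0.70 and -0.83 on the ex14+HGF arrays. Its lines overlapped in both conditions, and in ex14 its arrays with HGF lay below those without.

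None of the 4 transcription factors was called between the lines in the main fit, and the signs of their differences were mixed. IRF7, the factor that amplifies type I interferon production, read 3.01, 3.06, 2.95 and 3.22 on the WT arrays, 3.18, 3.21, 3.16 and 3.18 on the WT+HGF arrays, 3.49, 3.38, 3.70 and 3.70 on the ex14 arrays, and 3.58, 3.75, 3.91 and 3.77 on the ex14+HGF arrays. Its ex14 arrays were above its WT arrays in both conditions, by 0.51 (SE 0.10, adjusted p = 0.00252) and 0.57 (adjusted p = 0.000947), just under the fold limit, and it passed that limit in both when arrays were scaled to their median or to the spike-in probes, and with HGF also with normexp correction and without ex14+HGF replicate 1. IRF1, which interferon gamma induces, read 2.13, 1.95, 2.48 and 2.38 on the WT arrays, 1.65, 1.97, 1.95 and 2.30 on the WT+HGF arrays, 1.91, 1.90, 1.96 and 2.33 on the ex14 arrays, and 1.30, 1.24, 1.54 and 1.48 on the ex14+HGF arrays. Without HGF the lines overlapped, at -0.21 (adjusted p = 0.399), and with HGF all 4 ex14 arrays were below the WT arrays, at -0.58 (adjusted p = 0.015), just under the fold limit. The difference with HGF was called with quantile normalization and in 3 of the 16 cases with 1 array left out.

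STAT2 and IRF9 are the members of the set that belong to ISGF3. STAT2 read 5.41, 5.30, 5.41 and 5.52 on the WT arrays, 5.40, 5.45, 5.31 and 5.54 on the WT+HGF arrays, 5.09, 5.29, 5.13 and 5.40 on the ex14 arrays, and 5.25, 5.11, 5.40 and 5.27 on the ex14+HGF arrays. IRF9 read 0.05, -0.10, 0.28 and 0.12 on the WT arrays, -0.13, -0.12, 0.09 and 0.23 on the WT+HGF arrays, -0.15, 0.03, -0.39 and -0.13 on the ex14 arrays, and -0.19, -0.52, -0.22 and -0.24 on the ex14+HGF arrays. STAT2 overlapped between the lines in both conditions, at -0.18 (adjusted p = 0.217) and -0.17 (adjusted p = 0.249). IRF9 was at -0.25 (adjusted p = 0.187) and -0.31 (adjusted p = 0.0932). The ex14+HGF arrays of IRF9 were below the WT+HGF arrays, and neither gene was called.

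HGF lowered 3 of the 36 genes in ex14, namely EPSTI1, SAMD9L and IRF1, and raised none, against 2.11% of all genes called, 0.986% called lower and 1.13% called higher. Without the fold limit 4 passed, HERC5 being added, against 3.07%. EPSTI1 changed by -0.76 (SE 0.17, 1.69-fold lower, adjusted p = 0.0238), SAMD9L by -0.70 (SE 0.14, adjusted p = 0.0176) and IRF1 by -0.64 (SE 0.15, adjusted p = 0.038). All 4 ex14+HGF arrays were below all 4 ex14 arrays for each of them. A second SAMD9L probe gave -0.62 (adjusted p = 0.104) for this change and was not called. Below 0 were 32 of the 36 genes, against 39.6% of all genes, with a median of -0.23 against 0.06. With median scaling 34 genes were below 0 and their median was -0.39, while the median of all probes fell to -0.11. Arrays with and without HGF did not overlap for 9 genes, against 8.95% of all genes. All 9 were lower with HGF, against 4.47% of all genes. Those 9 included HERC5 (-0.37, adjusted p = 0.0293), IFI35 (-0.44, adjusted p = 0.0516), OAS1 (-0.38, adjusted p = 0.0861) and DDX60 (-0.49, adjusted p = 0.216). The number called rose to 4 with median scaling, which added CMPK2, and fell to 2 with spike-in scaling, to 1 with normexp correction or no filter on dim probes, to 0 in a fit of the ex14 and ex14+HGF arrays alone, to 1 without ex14 replicate 1 or ex14+HGF replicate 4, and to 0 without ex14 replicate 2 or 4 or ex14+HGF replicate 2 or 3. With single arrays left out, EPSTI1 lost its call in 6 of 16 cases (adjusted p up to 0.0924), SAMD9L in 4 (up to 0.0709) and IRF1 in 10 (up to 0.136).

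In WT, HGF changed none of the 36 genes by the same rule, and none of all genes (0% called). With an unadjusted p below 0.05, 4 genes passed in WT, against 4.71% of all genes: EPSTI1 (-0.52), OAS1 (-0.33), CMPK2 (-0.32) and IFI35 (-0.25). Of the 36, 27 were below 0, against 39% of all genes, with a median of -0.09 against 0.04. With median scaling 34 were below 0 and their median was -0.21, while the median of all probes fell to -0.08. EPSTI1 was the 1 gene whose arrays did not overlap, against 2.5% of all genes. The difference between the HGF responses of the lines was called for none of the 36 genes and for 0% of all genes. Below 0 were 29 of the 36, against 49.7%. At an unadjusted p below 0.05 there were 3, against 4.61% of all genes, namely BST2 (-0.42, -0.79 to -0.04), HERC5 (-0.29, -0.55 to -0.03) and OAS2 (-0.30, -0.59 to -0.0027). The second BST2 probe gave -0.32 (-0.70 to 0.06) here. A dimmer OAS2 probe gave 0.86 (0.18 to 1.54), the opposite sign, so the OAS2 value depended on the probe. The 4 comparisons share arrays, and the lower values of EPSTI1, SAMD9L and IRF1 in ex14+HGF enter both their HGF change and their difference between the lines.

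**Figure D2:**
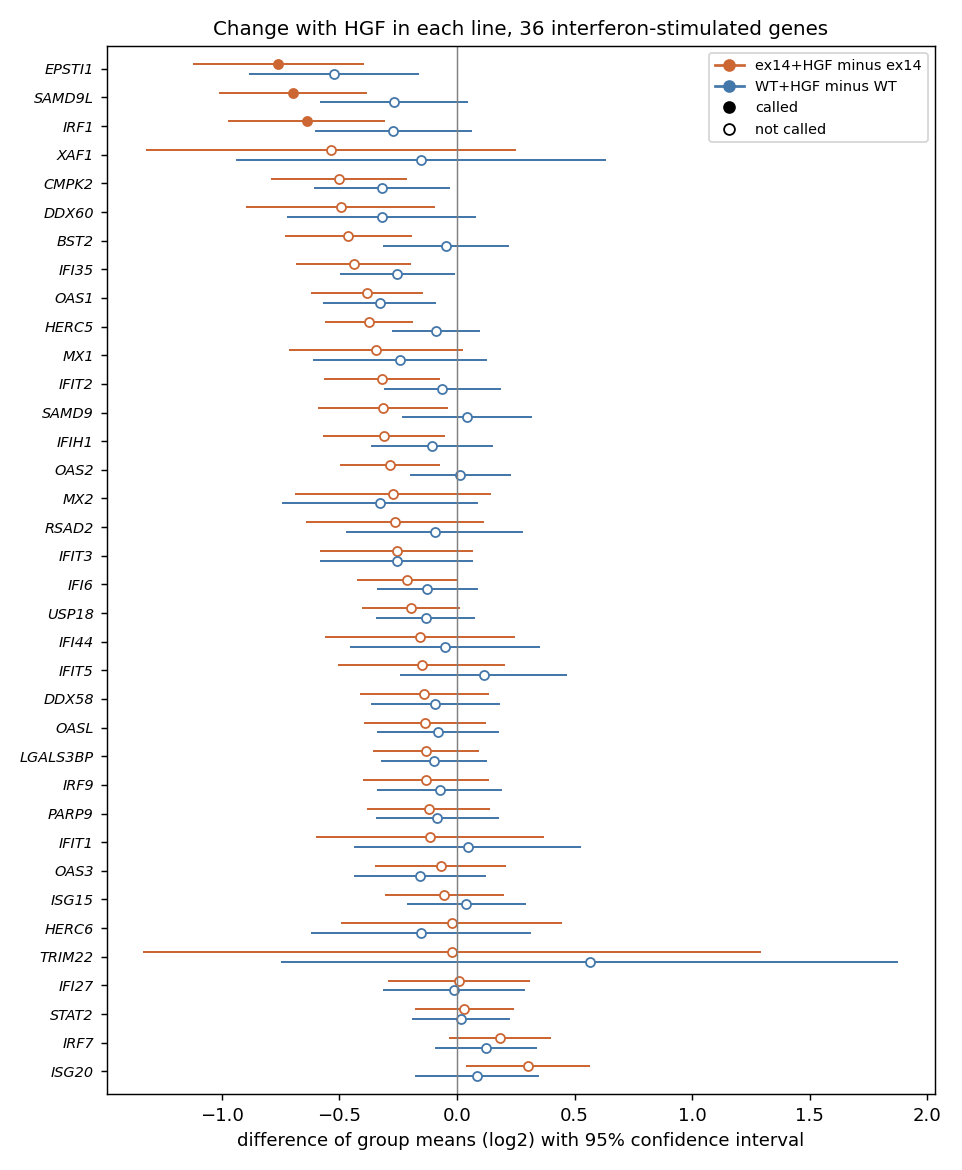
Change with HGF for the 36 interferon-stimulated genes tested, on the log2 scale, with the 95% confidence interval, in ex14 (ex14+HGF minus ex14) and in WT (WT+HGF minus WT), with called genes filled. EPSTI1, SAMD9L and IRF1 in ex14 are the called changes, at -0.76, -0.70 and -0.64, and ISG20 and IRF7 lie to the right of 0 in both lines.

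A mean over the 36 genes of each array's deviation from the gene's own mean summarises the set, without a test. It was 0.23 ± 0.10 in WT, 0.13 ± 0.12 in WT+HGF, -0.06 ± 0.10 in ex14 and -0.30 ± 0.05 in ex14+HGF (log2, mean ± SD, n = 4). The single arrays read 0.16, 0.13, 0.32 and 0.30 in WT, -0.0019, 0.08, 0.16 and 0.27 in WT+HGF, -0.08, -0.15, -0.08 and 0.08 in ex14, and -0.36, -0.32, -0.25 and -0.28 in ex14+HGF. The ex14+HGF arrays were below all others, WT and ex14 did not overlap, and WT+HGF overlapped with both WT and ex14. The difference of the lines was -0.29 without HGF and -0.43 with it, and -0.21 and -0.35 without BST2. Without HGF it was -0.15 with median scaling and -0.18 with spike-in scaling of the arrays, and with HGF -0.33 and -0.37. These scalings put the median of all probes at 0.12 and 0.09 without HGF and at 0.09 and 0.06 with it. On slide 1 alone the differences as first given were -0.27 and -0.38, and on slide 2 alone -0.31 and -0.48. In every group both arrays of slide 2 lay above both of slide 1. All 23 calls of single genes had the same sign on both slides. This had to be so, since the arrays of the compared groups did not overlap for any of them.

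**Figure D3:**
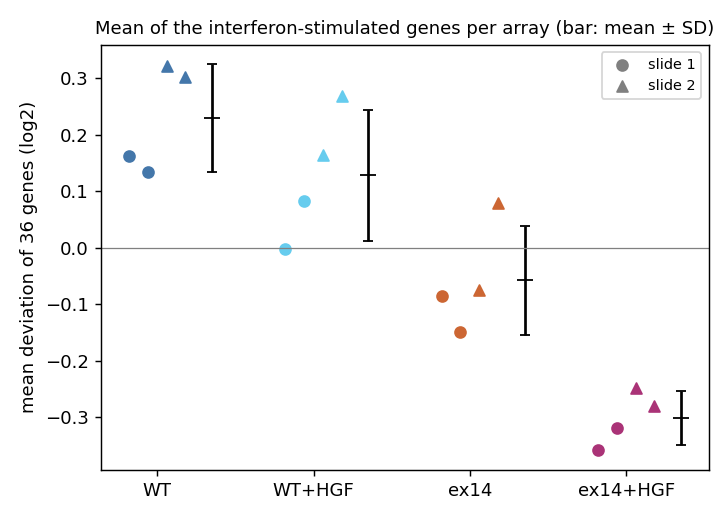
Mean deviation of the 36 interferon-stimulated genes from their own means (log2) on each array, by group, with slide 1 as circles and slide 2 as triangles and the group mean ± SD (n = 4) beside the points. The ex14+HGF arrays lie between -0.36 and -0.25, below all arrays of the other groups.

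Other genes of the pathway were taken from 5 lists, 78 genes in all, of which 77 were on the array and 72 were tested. Without HGF 3 of the 72 were called higher in ex14 and 10 lower, and with HGF 2 and 11. The shares over all genes were 4.51% higher and 4.74% lower without HGF, and 5.3% and 5.36% with it. HGF lowered 4 and raised none in ex14, against 0.986% and 1.13% of all genes, and no listed gene was called for HGF in WT. Among the ligands, 9 on the array and 5 tested, with a median difference of 0.69 without HGF and 0.48 with it, all 3 calls without HGF were lambda (type III) interferons, which act on epithelia, and all were higher in ex14. IFNL1 read 0.68 ± 0.21 in WT and 1.36 ± 0.17 in ex14 (0.69, adjusted p = 0.0038), and its arrays did not overlap. IFNL2 differed by 1.06 (adjusted p = 0.000513) and IFNL3 by 1.06 (adjusted p = 0.00131), and these near-identical copies may share signal on a hybridisation array. With HGF in both lines IFNL1 differed by 0.48 (adjusted p = 0.0266), IFNL2 by 0.56 (adjusted p = 0.0263) and IFNL3 by 0.38 (adjusted p = 0.193, arrays overlapping), and none was called. HGF lowered IFNL2 (-0.72, adjusted p = 0.0304) and IFNL3 (-0.81, adjusted p = 0.0328) in ex14, while IFNL1 changed by -0.29 and was not called. IFNB1, interferon beta, was not called without HGF (-0.04, -0.44 to 0.36) and was lower in ex14+HGF than in WT+HGF (-0.62, adjusted p = 0.0293). With single arrays left out, the call was lost in 3 of 16 cases for IFNB1 (adjusted p up to 0.0919), and for HGF in ex14 in 6 for IFNL2 (adjusted p up to 0.107) and 8 for IFNL3 (up to 0.117). The IFNB1 call was also lost with normexp correction (-0.47), with median scaling (-0.52) or spike-in scaling (-0.56), and with only the compared arrays in the fit. The IFNL2 and IFNL3 calls for HGF in ex14 were lost with spike-in scaling and with no filter on dim probes.

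Of 11 genes on the list of receptors and kinases, all tested, 3 were lower in ex14 without HGF and 2 with it, and none was higher, with median differences of -0.32 and -0.34. IFNLR1, the specific chain of the lambda interferon receptor, was at -1.07 and -1.04 without and with HGF (adjusted p = 1.56e-05 and 1.81e-05). IFNGR1, the ligand-binding chain for interferon gamma, was at -0.81 and -1.04 (adjusted p = 0.000618 and 6.89e-05). IFNAR1, a chain of the type I receptor, was at -0.63 (adjusted p = 0.000621) and -0.50, the first of which lost its call with normexp correction and with median or spike-in scaling. IFNAR2, its partner, was at -0.17 and -0.30, JAK1 at -0.32 and -0.38 and TYK2 at -0.14 and -0.20, and none of these was called.

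Of the sensors of nucleic acid and their adaptors, 10 of 11 were tested, and the same 3 were lower in ex14 in both conditions, with median differences of -0.22 and -0.24. They were IFI16 and AIM2, which sense DNA, and TMEM173 (STING), the adaptor of cytosolic DNA sensing. IFI16 read -2.18 ± 0.13 in WT and -4.33 ± 0.74 in ex14, where only 2 of 4 arrays were well above background (-2.15, adjusted p = 8.97e-05), and with normexp correction the difference was -0.73. With HGF it was -1.70, or -0.65 with normexp correction. AIM2 was at -1.67 and -1.35 (adjusted p = 6.55e-05 and 0.000296) and TMEM173 at -1.10 and -0.91 (adjusted p = 1.3e-05 and 5.25e-05). The 10 inhibitors of the pathway had medians of 0.23 and 0.20. SOCS1, which blocks JAK kinases, was higher in ex14+HGF than in WT+HGF (0.60, adjusted p = 0.0196, arrays overlapping), the only call among them, lost in 4 of 16 cases with 1 array left out, and it was at 0.23 and not called with normexp correction. It was also not called with only the compared arrays in the fit. The enzymes ADAR and TREX1, which edit or remove endogenous nucleic acid, were at 0.24 and 0.22 without HGF and 0.14 and 0.44 with it.

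Of 36 further interferon-induced genes, 4 were lower in ex14 without HGF (IFITM1, GBP1, GBP3 and CD274), and 5 were lower (IFITM1, GBP1, PARP12, IFI30 and PSMB8) and 1 higher (TRIM5) with it. Their medians were -0.09 and -0.25. GBP1, a guanylate-binding protein induced mainly by interferon gamma, had the largest difference of this list with HGF, at -1.88 (adjusted p = 1.29e-05), after -1.04 without it (adjusted p = 0.00168). HGF lowered GBP1 in ex14 (-1.47, adjusted p = 0.00156), and in WT the change of -0.63 had an adjusted p of 0.869, although the 4 arrays did not overlap there either. With normexp correction the GBP1 difference with HGF was -0.97 and its HGF change in ex14 -0.66, both still called. IFITM1, which hinders the fusion of viruses with cell membranes, was at -0.99 and -1.13, which normexp correction brought to -0.57, no longer called, and -0.60, still called. RTP4, the other call with HGF in ex14, changed by -0.77 (adjusted p = 0.0208), or -0.37 and not called with normexp correction, and it was not called with only the compared arrays in the fit. CD274 (PD-L1) was at -0.81 and GBP3 at -0.61 without HGF, calls that were lost in 4 and 2 of 16 cases with 1 array left out, as was that of RTP4 in 5, and with HGF those of PARP12, TRIM5 and IFI30 in 1, 1 and 2. With HGF, PSMB8, a subunit of the immunoproteasome, was at -0.75, PARP12 at -0.66, IFI30 at -0.64 and TRIM5, which restricts retroviruses, at 0.64, or 0.17 and not called with normexp correction. CD274 lost its call with median or spike-in scaling (-0.67 and -0.70), and GBP3 with normexp correction, median or spike-in scaling (-0.50, -0.47 and -0.50). PARP12 lost its call with normexp correction (-0.55) and median scaling (-0.56), and IFI30 with both of these (-0.53 and -0.55) and with spike-in scaling (-0.58).

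**Figure D4:**
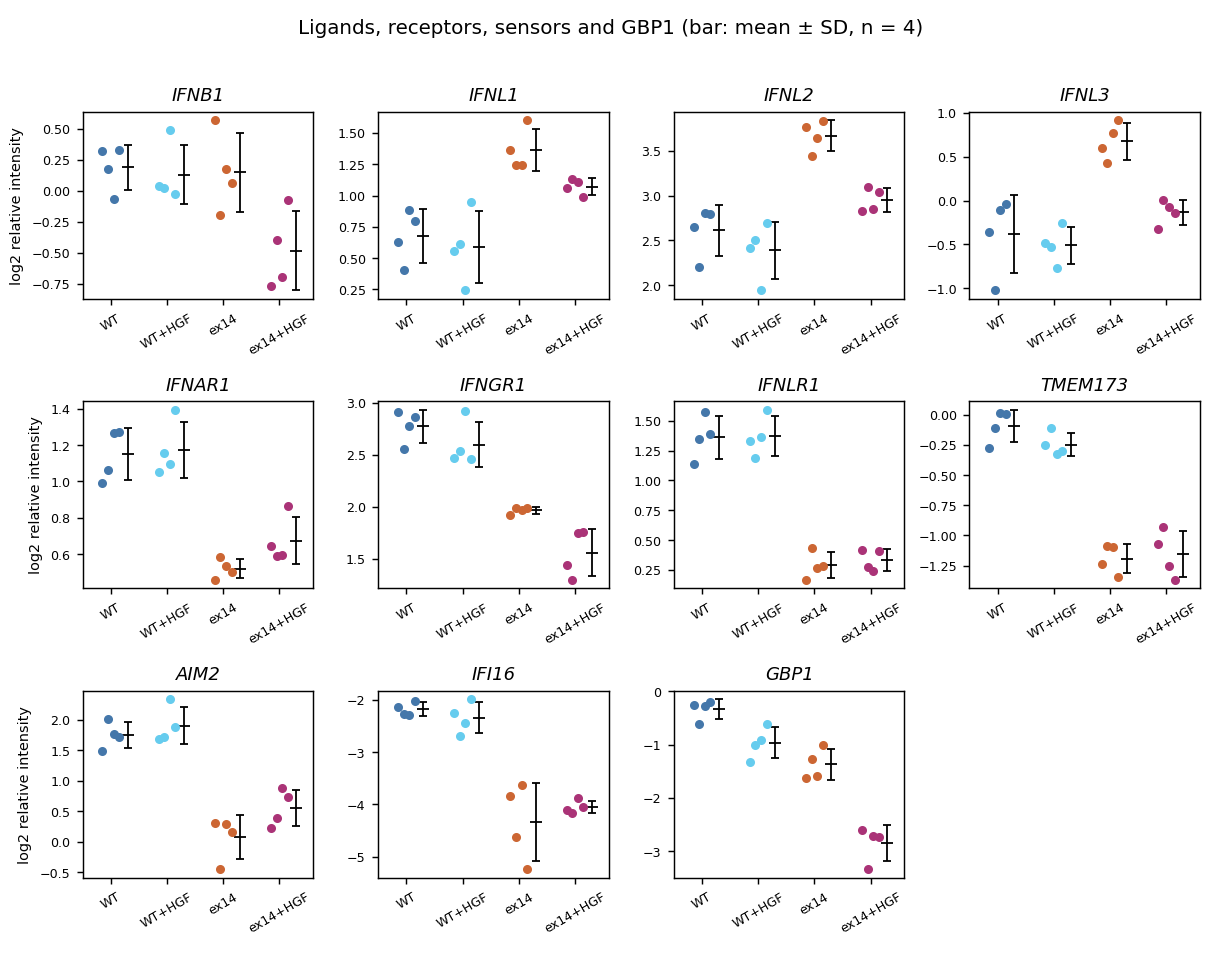
Log2 intensity relative to the 75th percentile of the array for 4 ligands, 3 receptor chains, 3 sensors or adaptors and GBP1, 1 point per array, with the group mean ± SD (n = 4) beside the points. The lambda interferons lie higher in ex14 than in WT, and IFNLR1, IFNGR1, IFNAR1, TMEM173, AIM2, IFI16 and GBP1 lie lower.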

How the data were processed

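Total RNA of 16 cultures was hybridised to single-colour (Cy3) Agilent arrays, 1 per sample. The authors quantified the scans with Agilent Feature Extraction 10.7.3.1 and deposited the intensity of each spot after subtraction of a fitted background surface and detrending, with no scaling between arrays. Here control spots and outlier spots were left out and log2 intensities were set relative to the 75th percentile of their own array, with replicate spots averaged. The fit took in the 34599 of 58201 probes that stood well above background on 4 or more arrays and was made with limma 3.58.1 in R 4.3.3, with 1 mean per group over all 16 arrays. A gene was called at a Benjamini-Hochberg adjusted p below 0.05 over all probes tested and a fold change above 1.5, and a gene is its brightest probe. Intervals are 95% confidence intervals. The fit was tested on simulated data.

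The 37 genes and the other lists were chosen with earlier results of these data known. Values on every array are given for up to 10 members with the largest difference without HGF, then up to 5, 5 and 3 more for the comparison with HGF, HGF in ex14 and the difference of the HGF responses, called genes first and then by lowest p, and for STAT2, IRF1, IRF7 and IRF9. Other lists are named where called, with a fixed set of genes named in any case, 1 of which is not reported here. ISG15 was added after its values were seen. Groups follow the genotype and agent in the labels. The titles of the WT+HGF samples give YY in place of WT, while their descriptions give WT. Replicate numbers are slide and row and pair nothing in the labels. Probe positions are on hg19, and promoter sequences are from RefSeq on GRCh38.p14. Background correction, scaling, filters, fold limit, prior, probe choice, blocks and single arrays left out were varied.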

Additional observations from a re-analysis of the deposited data

Results flagged for a closer look

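Sets of 4 arrays of a group were looked at for each tested member and for the mean score, 148 in all. In 11 of them, all of members, 1 array lay apart from the other 3 by Dixon's test at the 95% level. Chance alone does this in about 1 in 20 sets. The ex14+HGF replicate 1 array accounted for 4 of them, with IFIT2 at 5.47 (others 5.76 to 5.82), IFI6 at 1.03 (1.24 to 1.28), ISG15 at 6.17 (6.50 to 6.54) and MX2 at -3.07 (-3.70 to -3.64). In the ex14 group, OASL read 4.34 in replicate 2 (4.63 to 4.67) and IRF1 read 2.33 in replicate 4 (1.90 to 1.96). In WT, EPSTI1 read 0.18 in replicate 1 (-0.30 to -0.25), TRIM22 read -5.40 in replicate 1 (-3.94 to -3.72) and IFI6 read 1.97 in replicate 4, below the others at about 2.02. IRF9 read -0.52 in ex14+HGF replicate 2 (-0.24 to -0.19), and SAMD9 read 0.32 in WT+HGF replicate 3 (-0.16 to -0.08). The high IRF1 array is among those without which the HGF change of IRF1 in ex14 was not called.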

How the results depend on the processing

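None of the mean scores changed direction under the alternatives run, and none of the called genes did so on its brightest probe. Another MX2 probe gave the opposite sign, at 0.37 without HGF and 0.27 with it. Of 216 counts and mean scores under other settings 198 stayed close (counts within 1.5 times, scores within the spread between arrays). These include the counts for HGF in WT and for the difference of the HGF responses, which were 0 under every setting. Of 636 values of called genes 579 stayed past the threshold and 57 did not. Without the fold limit, 15 members passed without HGF and 18 with it. HGF in ex14 gave 1 call with normexp correction, 1 with no filter and 0 with only the compared arrays. The mean score of ex14 against WT was -0.15 with median scaling, -0.18 with spike-in scaling and -0.18 as a median over members. With HGF it was -0.30 with normexp correction and -0.33 with median scaling, and median scaling gave -0.40 for HGF in ex14 and -0.22 for HGF in WT. Median scaling moved the median of all probes from -0.02 to 0.12 without HGF. For HGF in ex14 it moved from 0.05 to -0.11, and for HGF in WT from 0.04 to -0.08. Normexp correction moved it to -0.13 without HGF and -0.14 with it. Any probe of a gene in place of the brightest added PARP9, for 10 and 12 calls. Leaving out each array in turn gave 8 to 9 calls without HGF, 11 to 13 with it, 0 to 3 for HGF in ex14 and 0 for both others, and scores of -0.33 to -0.26, -0.47 to -0.38, -0.27 to -0.20 and -0.15 to -0.06. With the array row as a replicate block, or the slide as a block, the counts were 9, 11, 3, 0 and 0, and no call was lost. Without BST2, an alternative chosen after seeing the data, the scores were -0.21, -0.35, -0.24 and -0.10. Levels near background (TRIM22, XAF1, IFI16 in ex14) carry little precision, and 4 arrays per group limit all of these values.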
